A study of Rattus with 8 samples.

Results

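The miR-379/410 cluster is a long row of miRNA genes in the imprinted Dlk1-Dio3 region, and its mature miRNAs were followed here in the rat hippocampus 24 h after cardiopulmonary bypass with deep hypothermic circulatory arrest (CPB/DHCA). Members were taken by name from the table of raw tag counts, as every mature rat miRNA with 1 of 35 numbers of the cluster, on either arm of the hairpin. Of the 615 mature miRNAs listed in the table, 55 were members, and they came from 32 hairpins. No miRNA was listed for miR-299b, miR-409b or miR-679. Each member filled 1 line of the table, and the rule reads names and not levels.

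Small RNA of the hippocampus was sequenced in 4 sham control rats and in 4 rats after CPB/DHCA, all male Sprague-Dawley animals aged 9 weeks and given sevoflurane and acetaminophen, with 1 library per rat. The operated animals were put on bypass, cooled to a rectal temperature of 18 °C over 30 min, kept without circulation for 30 min and rewarmed over about 60 min. Control rats had the tube and the vessel cannulas but neither bypass nor arrest, and tissue of both groups was taken at 24 h. Bypass, cooling and arrest came together in 1 group, so their effects cannot be told apart, and rats that died before 24 h were not studied. The whole hippocampus was sampled, so fewer cells of a type and less RNA per cell cannot be told apart either.

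The cluster is transcribed from the maternally inherited chromosome as a long non-coding RNA from which the hairpins are cut, and it is found in placental mammals. Each hairpin can give a mature miRNA from its 5′ side (5p) and from its 3′ side (3p), and bases 2 to 8 of the mature miRNA, the seed, pair with target mRNAs. In cultured rat neurons the cluster is switched on by activity through the transcription factor Mef2, and its members act on dendrites and synapses. miR-134, the best studied of them, limits the size of dendritic spines in rat hippocampal neurons.

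In the RefSeq gene table of the GRCr8 assembly, which is not the rn6 build named by the submitters, all 32 hairpins lay on chromosome 6 between Rtl1 and Dio3. The first from the Dlk1 side was Mir379 and the last was Mir410. Mir1193 and Mir6331 lie in the same stretch, and their miRNAs were listed but were outside the rule. Their mature sequences, as the authors listed them, are shown for the 10 most abundant members, since most tags of the cluster came from these. Capitals mark the seed.
miR-369-3p: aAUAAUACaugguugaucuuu
miR-323-3p: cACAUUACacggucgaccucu
miR-300-3p: uAUGCAAGggcaagcucucuuc
miR-382-5p: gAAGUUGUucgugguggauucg
miR-379-5p: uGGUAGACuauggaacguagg
miR-487b-3p: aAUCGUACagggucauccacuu
miR-410-3p: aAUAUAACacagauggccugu
miR-495: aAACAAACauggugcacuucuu
miR-380-3p: uAUGUAGUaugguccacaucu
miR-409a-5p: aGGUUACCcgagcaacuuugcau

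The next set is shown because it holds miR-376a-3p and miR-668, the members counted as lower after CPB/DHCA before adjustment of p but not after it. It also holds the neighbours of miR-376a on the chromosome, and the members whose sequences nearly repeat that of another. Capitals again mark the seed.
miR-376a-3p: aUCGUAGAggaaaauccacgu
miR-376b-3p: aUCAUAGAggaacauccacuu
miR-376c-3p: aACAUAGAggaaauuucacgu
miR-668: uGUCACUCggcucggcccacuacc
miR-381-3p: uAUACAAGggcaagcucu
miR-539-3p: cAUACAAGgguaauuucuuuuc

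Although the hairpins sit side by side, their seeds were nearly all different. The 55 members carried 54 seeds, and the seed that recurred, AUACAAG, belonged to miR-381-3p and miR-539-3p. A few seeds were shared with miRNAs from outside the cluster, such as that of miR-329-3p with miR-362-3p and that of miR-410-3p with miR-344b-1-3p. Short words of 6 bases, some of which run into the seed, recurred more widely. ACACGG, which stands in miR-323-3p, was found in 5 of the members (9.09%), against 0.357% of the other listed miRNAs, and UCCACU, which stands in miR-487b-3p, in 5 (9.09%) against 0.179%. These words were picked because they recurred, as the most frequent of 6 bases among the members, so the shares are a description.

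Lengths of the members ran from 18 to 25 nt, and 50 of the 55 were of 20 to 23 nt. The shortest was miR-381-3p, which over its 18 bases differed from miR-300-3p by a single substitution, G4A, counted from the 5′ end with the base of miR-300-3p first. The alignment permitted 1 mismatch, so reads of these miRNAs may have been exchanged, and the count of neither can be taken as its own. miR-300-3p had 17154 tags over the 8 libraries and miR-381-3p had 37. miR-376a-3p and miR-376b-3p differed by 3 substitutions over 21 bases (G4A, A13C and G20U, with the base of miR-376a-3p first), more than the alignment permitted. That holds for the full listed sequences, and an exchange of shorter or edited reads was not tested.

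The libraries held 508574 to 772840 tags on listed miRNAs. Levels are given as CPM, the tags of a miRNA relative to the library total, with TMM scaling (edgeR's trimmed mean), so that 1 tag was worth 1.196 to 2.003 CPM. A library with no listed tag, which can hold 0 or 1, was read as 0. Markers of neurons (miR-9a, miR-124, miR-128, miR-137, miR-138 and miR-218) summed to 186280 to 374320 CPM, with all 12 of their miRNAs listed. Much of this sum was miR-9a-5p, with 1086819 tags over the 8 libraries. In comparisons of levels a miRNA was counted as changed when its fold change was at least 1.5 at an unadjusted p of at most 0.05. These are the thresholds given in the study's methods. The main test was edgeR's quasi-likelihood test over the 467 miRNAs that had at least 10 tags and were listed in at least 4 libraries.

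CPB/DHCA 4 stood apart from the other libraries in a group of miRNAs that are abundant in epithelia and sensory cells. miR-200a-3p had 24903 CPM there, 723.9 CPM in control 4 and at most 18.0 CPM in each of the remaining libraries. miR-183-5p likewise had 4200 CPM there and 265.3 CPM in control 4, and miR-200b-3p, miR-429 and miR-182 were also highest in these libraries. These miRNAs were looked at after their values were seen, and their part in the members' values was not tested. Without CPB/DHCA 4 the members past both thresholds were again 2, both lower, and the median log2 fold change of the members was -0.04 against -0.10 with it.

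The summed level of the cluster differed more between rats than between the groups. Its members summed to 25619, 29876, 23717 and 24521 CPM in control 1 to 4, and to 27173, 23782, 24987 and 21198 CPM in CPB/DHCA 1 to 4. The highest library was control 2 and the lowest CPB/DHCA 4, and the groups overlapped. The means were 25933 ± 2741 CPM (SD, n = 4) and 24285 ± 2491 CPM (SD, n = 4), a ratio of 0.936, and the difference was smaller than the SD of either group. The log2 ratio of the means was -0.09, and -0.04 without CPB/DHCA 4.

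As a share of all listed tags, the cluster took 2.26% to 3.23% in controls and 1.89% to 2.82% after CPB/DHCA. The 95% Wilson intervals of these shares cover counting error only, and are narrow beside the differences between rats, as in control 2 (3.19% to 3.27%) and control 3 (2.23% to 2.30%). The other miRNAs of the Dlk1-Dio3 region, which lie towards Dlk1 and include miR-127 and miR-136, were more abundant, at 40440 ± 3689 CPM for controls and 38840 ± 3863 CPM for CPB/DHCA (SD, n = 4 each). Their sum followed that of the cluster in some libraries only. Control 2, highest for the cluster, was below control 1 and control 3 for them, while CPB/DHCA 4 was lowest for both, at 34641 CPM for them. Much of their sum was miR-127-3p, with a mean of 24512 CPM in controls.

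**Figure D1:**
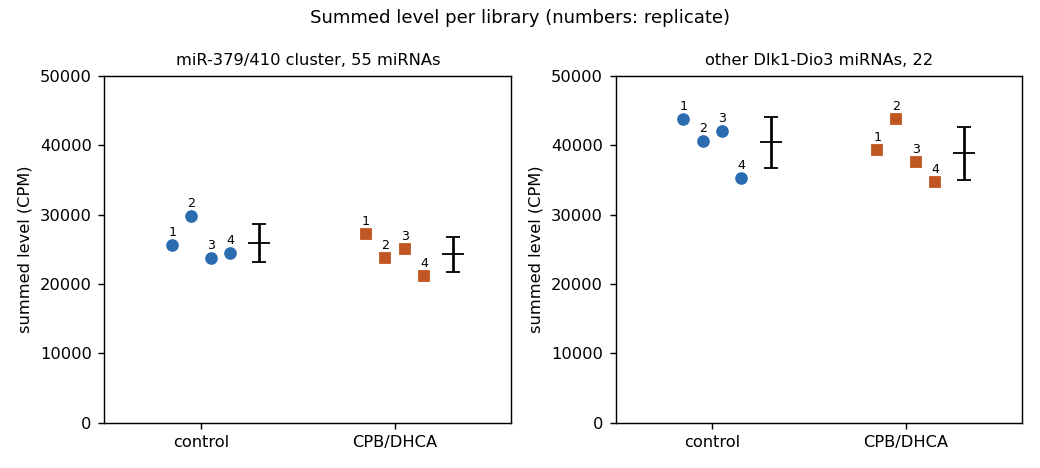
Summed level per library in CPM, for the 55 members (left) and the 22 other listed miRNAs of the Dlk1-Dio3 region (right). Points are libraries with their replicate number, and bars are the mean and SD of 4 libraries. The cluster lies between 21198 and 29876 CPM in all 8 libraries, and the groups overlap in both panels.

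A few members carried most of this sum. 6 members had a mean of at least 1000 CPM over the 8 libraries, 21 had 100 to 1000, 12 had 10 to 100 and 16 had under 10. The 10 most abundant took 79.0% of the cluster's CPM. Of all members, 43 were listed in every library.

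miR-369-3p, known in human cells for binding AU-rich elements of mRNAs such as that of TNF, was the most abundant member and ranked 37 among all listed miRNAs. It had 3506, 4499, 3062 and 2407 CPM in control 1 to 4 and 3773, 2902, 3665 and 2759 CPM in CPB/DHCA 1 to 4. The groups overlapped, and the lowest and the highest library were both controls. The log2 fold change was -0.04 (standard error, SE, 0.20, 95% interval -0.49 to 0.41).

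miR-323-3p followed with 2958, 4177, 2994 and 3186 CPM in control 1 to 4 and with 3682, 2916, 3122 and 2663 CPM in CPB/DHCA 1 to 4. miR-300-3p had 3173, 4043, 2732 and 3257 CPM in the control libraries and 3185, 2890, 3418 and 2984 CPM in the CPB/DHCA libraries. In both of them control 2 stood above the other 7 libraries, which overlapped. Their log2 fold changes were -0.10 (SE 0.16) and -0.08 (SE 0.15), and turned to 0.04 and 0.05 without control 2, as miR-369-3p did to 0.15.

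The most abundant 5p members were miR-382-5p and miR-379-5p, the latter from the first hairpin of the row. Of the pair miR-382-5p varied less, with 2918, 3303, 2606 and 3015 CPM in the control libraries and 2665, 3071, 3166 and 2646 CPM in the CPB/DHCA libraries. Its log2 fold change was -0.04 (SE 0.13), with a 95% interval of -0.33 to 0.26 that lies within a fold change of 1.5 in either direction. miR-379-5p had 2770, 2534, 2706 and 3733 CPM in the control libraries and 3245, 2702, 2614 and 2386 CPM in the CPB/DHCA libraries. Here the highest library was control 4, in which miR-369-3p was lowest. Neighbours in the order of these 5 members differed by less than their spread between libraries.

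miR-487b-3p had 1242, 1740, 1236 and 1055 CPM in the control libraries and 1421, 1136, 1031 and 924.6 CPM in the CPB/DHCA libraries. miR-495, listed with no arm, had 734.1, 1295, 832.1 and 773.4 CPM in the control libraries and 1049, 759.1, 808.4 and 569.0 CPM in the CPB/DHCA libraries. Control 2 was again the highest library for both, and CPB/DHCA 4 the lowest. Their log2 fold changes were -0.22 and -0.19 (SE 0.20 and 0.24).

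miR-380-3p, from hairpin 4 of the row, had 779.9, 946.4, 672.6 and 564.1 CPM in the control libraries and 756.0, 635.0, 711.2 and 556.5 CPM in the CPB/DHCA libraries, in nearly the order of miR-369-3p. miR-409a-5p had 576.9, 597.0, 618.5 and 527.3 CPM in the control libraries and 779.5, 729.1, 504.2 and 416.1 CPM in the CPB/DHCA libraries. For the latter the CPB/DHCA group was the more spread, and held both the highest and the lowest library. Log2 fold changes were -0.16 and 0.07 (SE 0.19 and 0.22).

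miR-410-3p, from the last hairpin, was the only tested member whose groups did not overlap. It had 1137, 1248, 941.6 and 936.4 CPM in control 1 to 4 and 827.8, 757.1, 905.5 and 876.6 CPM in CPB/DHCA 1 to 4. The means were 1066 ± 153 CPM and 842 ± 64.9 CPM (SD, n = 4 each). The log2 fold change was -0.34 (SE 0.16, 95% interval -0.69 to 0.01), under the fold change of 1.5. The edgeR p was 0.055 before and 0.56 after adjustment. Enumerating all 70 assignments of libraries in an exact permutation test (two-sided) gave p = 0.029, the smallest that 4 against 4 allow. Groups that did not overlap were found in 1 of the 50 members tested, against 4.71% of all the miRNAs tested.

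**Figure D2:**
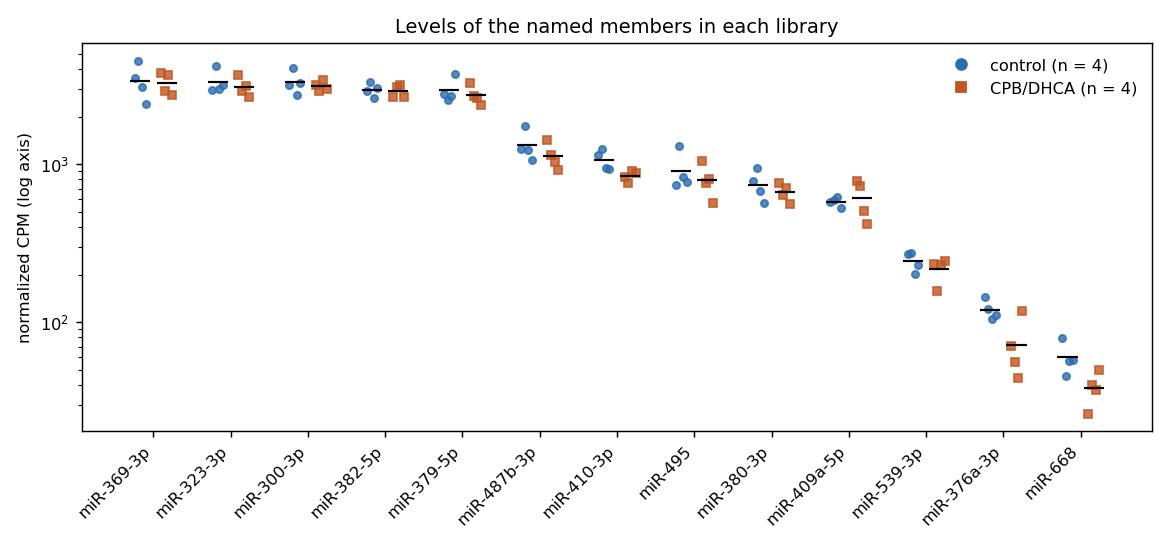
Normalized CPM on a log axis for the 10 most abundant members, the members past both thresholds and miR-539-3p. Points are single libraries and black lines are group means; the groups overlap except for miR-410-3p, with 936.4 to 1248 CPM in the control group and 757.1 to 905.5 CPM in the CPB/DHCA group.

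Of the 55 members, 50 passed the filter and were tested. 2 of them passed both thresholds as lower in the CPB/DHCA group and none as higher. Among all 467 miRNAs tested, 3.43% passed as lower, 3.85% as higher and 7.28% in either direction, so that 2 of 50 is near the share in the whole table. The count was 0 without control 1, without CPB/DHCA 1 and without CPB/DHCA 3. None of the members passed at an adjusted p under 0.05, against 0.214% of all the miRNAs tested. At an unadjusted p of at most 0.05 the count was also 2, against 39 of all the 467 miRNAs tested. With DESeq2 the adjusted count of members was 0 as well. The fitted change was below 0 in 36 members and above 0 in 14, beside 276 and 191 of all the miRNAs tested. The members' median log2 fold change was -0.10, beside -0.05 for all the miRNAs tested. Without control 2 the members' median was -0.02.

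miR-376a-3p, a member of the miR-376 group whose seed is edited from A to I in human and mouse brain, was lower after CPB/DHCA. It had 143.5, 120.8, 104.0 and 110.3 CPM in control 1 to 4 and 70.3, 56.1, 44.3 and 117.3 CPM in CPB/DHCA 1 to 4. 3 of the CPB/DHCA libraries lay below every control, and CPB/DHCA 4 lay among the controls. The means were 119.6 CPM and 72.0 CPM, with SDs of 17.3 and 32.05 (n = 4 each). The log2 fold change was -0.73, with SE 0.30. The edgeR p was 0.033 before and 0.53 after adjustment, and the exact permutation test gave p = 0.086. Its call held without control 3, control 4 or CPB/DHCA 4 and ended without any other single library, with log2 fold changes of -0.55 to -1.07 over all the fits with 1 library left out.

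The neighbouring hairpins give closely related miRNAs, and these differed less between the groups. miR-376b-3p had 241.1, 287.2, 242.7 and 195.0 CPM in the control libraries and 303.3, 194.3, 208.5 and 195.6 CPM in the CPB/DHCA libraries, and its log2 fold change was -0.10, SE 0.21. miR-376c-3p had 77.8, 73.0, 88.8 and 70.3 CPM in the control libraries and 82.1, 68.1, 42.9 and 44.5 CPM in the CPB/DHCA libraries, and its log2 fold change was -0.38, SE 0.25 (edgeR adjusted p = 0.76). In miR-376c-3p CPB/DHCA 2 to 4 lay below the controls and CPB/DHCA 1 among them, and in miR-376b-3p the groups overlapped throughout. Both were taken up after their values were seen, as neighbours of miR-376a-3p.

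Since a ratio of members within a library does not depend on scaling, miR-376a-3p was also set against miR-376b-3p. The tags of miR-376a-3p were 0.595, 0.421, 0.429 and 0.566 of those of miR-376b-3p in control 1 to 4, and 0.232, 0.289, 0.212 and 0.6 in CPB/DHCA 1 to 4. The same 3 CPB/DHCA libraries were low, and CPB/DHCA 4 was the highest of all 8. The means of 0.502 ± 0.0907 and 0.333 ± 0.181 (SD, n = 4 each) gave p = 0.14 in the exact permutation test.

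The other arm of this hairpin, miR-376a-5p, was seen in the CPB/DHCA group alone, as 3, 3 and 2 tags in CPB/DHCA 1 to 3. The group's total of 8 tags compares with no listed tag in any control library, each of which may hold 1 unlisted tag. It did not meet the filter, and no fold change is given for it. Of the other members that were not tested, miR-379-3p had 4 tags, miR-758-5p 2 and miR-134-3p 2, all in control libraries, and miR-667-5p had 4 over both groups. CPB/DHCA 4, which kept miR-376a-3p at the control level, was the CPB/DHCA library in which miR-376a-5p was not listed. It too may hold 1 unlisted tag, and so few tags cannot show whether the arms moved together.

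miR-668 was the other member past both thresholds. It had 79.4, 45.5, 56.9 and 57.5 CPM in control 1 to 4 and 26.4, 40.1, 37.1 and 49.8 CPM in CPB/DHCA 1 to 4. Only CPB/DHCA 4 reached above a control library, control 2. The means were 59.8 ± 14.2 CPM and 38.3 ± 9.6 CPM (SD, n = 4 each), and the log2 fold change was -0.64, with SE 0.26. The edgeR p was 0.034 before and 0.53 after adjustment, and in the exact permutation test p was 0.057. Its call held without control 2 and without CPB/DHCA 4 and ended without any other single library, and it also ended under DESeq2 (log2 fold change -0.59).

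The hairpins on each side of miR-668 give miR-134-5p and miR-485, both with known roles at synapses of rodent neurons, and were added after the values were seen. miR-134-5p had 236.6, 256.0, 163.6 and 286.0 CPM in the control libraries and 183.1, 206.3, 187.1 and 172.5 CPM in the CPB/DHCA libraries, and its log2 fold change was -0.33, SE 0.20 (edgeR adjusted p = 0.74). The CPB/DHCA libraries were close together and inside the range of the controls. miR-485-3p and miR-485-5p had log2 fold changes of -0.13 and -0.12 (SE 0.19 and 0.21). The ratio of the tags of miR-668 to those of miR-134-5p averaged 0.265 ± 0.0885 in controls and 0.206 ± 0.0602 after CPB/DHCA (SD, n = 4 each, exact permutation test p = 0.26).

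Markers of several other cell types, though not of all, differed between the libraries that carry these results. Striated muscle markers (miR-1, miR-133a and miR-206) summed to 87.9 to 331.2 CPM in controls and 62.2 to 122.2 CPM after CPB/DHCA (4 of 4 listed). That list leaves out more abundant muscle miRNAs, which differed less. miR-499-5p had means of 703 CPM in controls and 788 CPM after CPB/DHCA, and miR-1b 654 and 554 CPM. Mural and fibroblast markers (miR-143, miR-145, miR-199a and miR-214) summed to 2448 to 7543 CPM and 2435 to 3932 CPM (7 of 7 listed), highest in control 2. Oligodendrocyte markers (miR-219a and miR-338) summed to 6504 to 8116 CPM in controls and 5362 to 23263 CPM after CPB/DHCA (5 of 5 listed), highest in CPB/DHCA 3, where miR-376a-3p was lowest. In that library the neuronal markers were lowest too, at 186280 CPM. Their sum averaged 305210 CPM in controls and 291460 CPM after CPB/DHCA, but some rarer neuronal markers differed more. miR-124-3p had means of 6635 and 4940 CPM (edgeR adjusted p = 0.72). miR-137-3p had 1343 and 971 CPM, with groups that did not overlap (edgeR adjusted p = 0.53). Erythrocyte markers (miR-144, miR-451 and miR-486) summed to 96.9 to 135.8 CPM in controls and 104.2 to 190.3 CPM after CPB/DHCA (4 of 4 listed), highest in CPB/DHCA 4. Among these, miR-144-3p, miR-144-5p and miR-451-5p had higher means after CPB/DHCA, and miR-486, the most abundant, a lower one (102.6 against 112.8 CPM). Choroid plexus and ependyma markers (miR-204, miR-211 and miR-449a) summed to 544.9 to 1179 CPM and 460.7 to 825.0 CPM (4 of 4 listed), highest in control 2. Endothelial markers (miR-126a) summed to 2104.6 to 2633.5 CPM in controls and 2036.6 to 2487.8 CPM after CPB/DHCA (2 of 2 listed). Leukocyte and microglia markers (miR-142, miR-223 and miR-150) summed to 482.6 to 706.6 CPM and 524.15 to 625.86 CPM (5 of 5 listed). For these lists the means of the groups were close, with ratios of CPB/DHCA to control of 0.985 and 0.977. The part of all these cell types in the members' values was not tested.

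How closely the data bound a change differed with abundance. For all 27 members of at least 100 CPM that were tested, the 95% interval of the fold change lay within 2-fold in either direction, and for 16 of them within 1.5-fold. Among all 196 tested miRNAs of at least 100 CPM the same was true of 159 and of 88. For the 23 tested members under 100 CPM, which include both that passed the thresholds, only 5 intervals lay within 2-fold and none within 1.5-fold. The 27 abundant members had log2 fold changes from -0.34 to 0.21.

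Rare arms had wide intervals. miR-300-5p had 13 tags in controls and 3 after CPB/DHCA, and a fitted log2 fold change of -1.72 with a 95% interval of -4.44 to 1.00. In the other direction, miR-299a-3p stood at 0.73 on the log2 scale (SE 0.45, interval -0.29 to 1.74). Both are the extremes of the list and were named for that after their values were seen.

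Along the row of hairpins, members on the Dlk1 side were centred nearest to no change. For members of hairpins 1 to 11, from miR-379 to miR-495, the median log2 fold change was -0.03, with 10 of 17 fitted as lower. For those of hairpins 12 to 22, from miR-667 to miR-134, it was -0.16, with 14 of 16 lower, and for hairpins 23 to 32, from miR-668 to miR-410, -0.12, with 12 of 17 lower. Over all the miRNAs tested, 276 of 467 were fitted as lower. The differences between the stretches are small beside the median of 0.57 from a member's fold change to the end of its 95% interval. They were not tested.

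**Figure D3:**
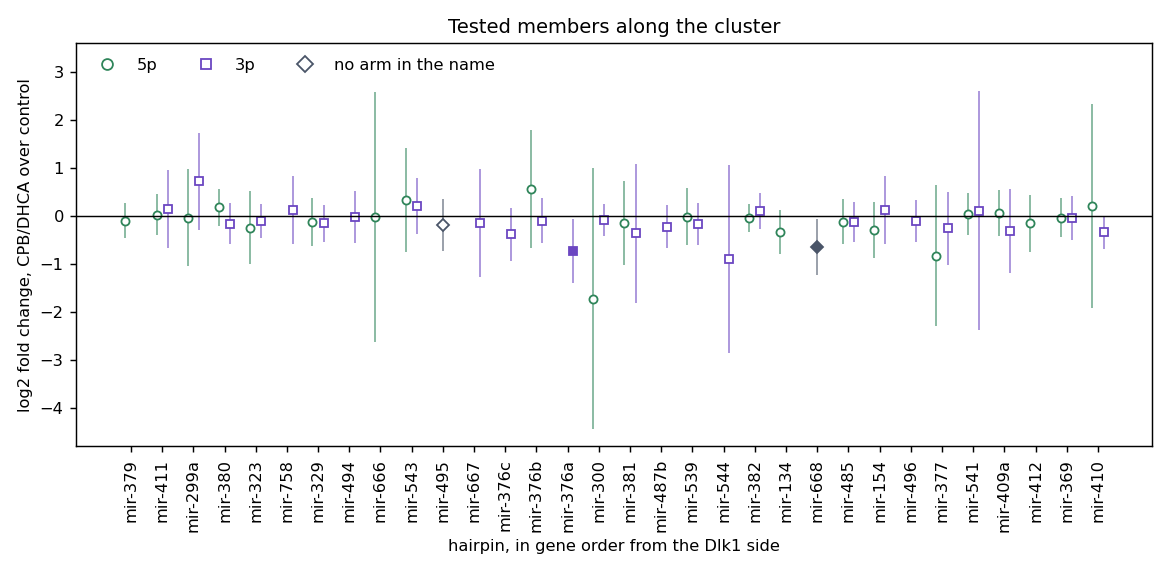
Log2 fold change of CPB/DHCA over control for the 50 tested members, by hairpin in gene order from the Dlk1 side, with 95% intervals of the edgeR fit as lines. Filled symbols are miR-376a-3p and miR-668, the members past both thresholds; the medians of the 3 stretches of hairpins named in the text are -0.03, -0.16 and -0.12.

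The other listed miRNAs of the Dlk1-Dio3 region were set beside them. Of 22 listed, 20 were tested, and 1 of them passed both thresholds as lower and none as higher. It was miR-136-5p, which is cut from the transcript antisense to Rtl1, at -0.87 on the log2 scale, SE 0.37 (edgeR adjusted p = 0.53). The median log2 fold change of the 20 was -0.07, and 15 of them were fitted as lower, beside 276 of all the 467 miRNAs tested. The difference between these miRNAs and the cluster was not tested.

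Which arm of a hairpin was kept differed along the cluster. Both arms were listed for 23 of the 32 hairpins, and by the listed counts the 3p arm had more tags in 13 of them and the 5p arm in 10. Without mir-300 and mir-381, whose 3p counts may be mixed, these were 12 and 9. Some hairpins were almost one-sided, as mir-379 with 14956 tags of 5p and 4 of 3p, and mir-410 with 5123 of 3p and 14 of 5p. mir-134 gave 1122 tags of 5p, the arm that acts in dendritic spines, and 2 of 3p. Others kept both arms, and in mir-329 they were nearly equal, with 2360 tags of 5p and 2328 of 3p.

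This balance was compared between the groups for every hairpin of the table that had both arms and at least 40 tags of the rarer one, which were 74 hairpins, 13 of them of the cluster. No hairpin of the cluster passed at an unadjusted p of at most 0.05, which 4.05% of all 74 did, and 0% passed at an adjusted p under 0.05 (limma). The smallest adjusted p of the cluster was 0.88. The 3p arm of miR-369 made up 90.6 ± 1.9% of its tags in controls and 90.7 ± 1.8% after CPB/DHCA (SD, n = 4 each), and that of miR-382 7.8 ± 1.1% and 8.5 ± 1.0%.

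The smallest p values of the cluster belonged to miR-299a, miR-380 and miR-377. The 3p arm of miR-299a made up 34.3 ± 13.6% and 45.3 ± 7.3% of its tags in the control and the CPB/DHCA group (SD, n = 4 each), from 117 tags in all. That of miR-380 made up 84.9 ± 2.6% and 82.0 ± 1.3%, a difference of -0.32 in the log2 ratio of the arms (SE 0.22). That of miR-377 made up 55.7 ± 18.8% and 69.6 ± 22.1%, and here the few tags left a standard error of 0.80 in the log2 ratio.

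**Figure D4:**
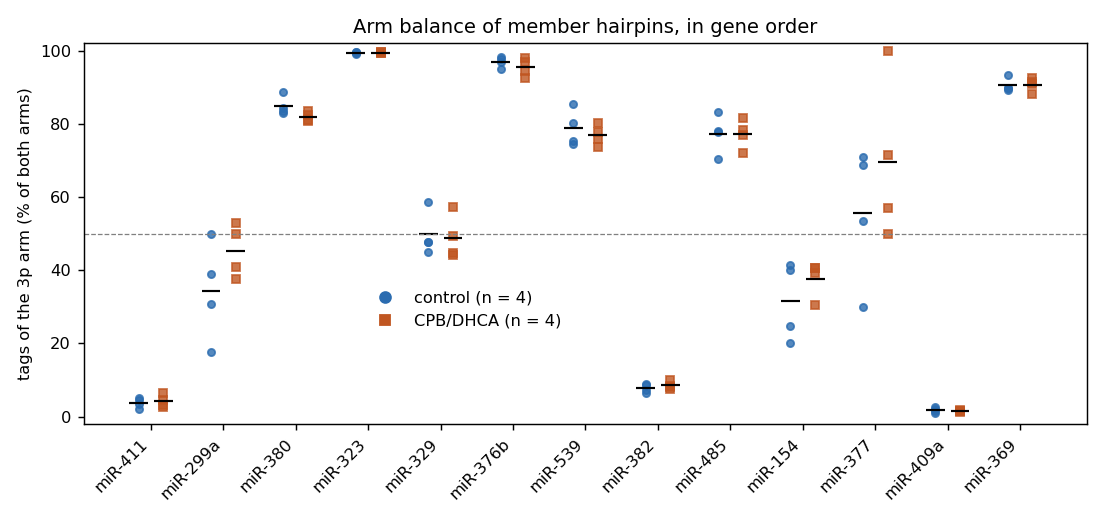
Tags of the 3p arm as a percentage of the tags of both arms, for the 13 hairpins of the cluster with at least 40 tags of the rarer arm, in gene order. Points are libraries and black lines group means; CPB/DHCA means range from 1.5% (miR-409a) to 99.5% (miR-323), and the groups overlap in each hairpin.

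Within the groups, members of the cluster varied together from rat to rat. With the group means removed, the median Pearson correlation over the 351 pairs of the 27 members of at least 100 CPM was 0.26 across the 8 libraries, and 70.1% of the pairs were above 0. Over pairs of the 159 miRNAs of at least 100 CPM outside the region the median was 0.00, with 49.9% above 0. Between members and those other miRNAs it was -0.03, and between members and the other miRNAs of the Dlk1-Dio3 region 0.16. All the correlations share the same 8 libraries with their depth and composition, and are given as a description.

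Over all 8 libraries the 3p members were the more alike. Their pairs had a median correlation of 0.44, against 0.23 among 5p members and 0.14 between 3p and 5p members. This rested largely on control 2, without which the 3p median was 0.305, close to the 0.277 of all abundant members. The 5p pairs were not computed with a library left out. The miRNAs closest to miR-369-3p in the whole table were miR-380-3p, with a correlation of 0.99 over the 8 libraries, then miR-450a-5p (0.93) and miR-872-3p (0.91), which are no members. Of the 11 abundant members with a correlation of at least 0.6 with miR-369-3p, 9 were 3p arms and 1 was a 5p arm, while of the 15 below that value 4 were 3p and 11 were 5p. The median content of A and U was 54.5% and 54.2% in these lists, and over the 26 members it had a correlation of 0.30 with their likeness to miR-369-3p. With the deviations of the 27 members in single libraries it ranged from -0.39, in both control 4 and CPB/DHCA 2, to 0.21. The part of base composition was not tested. The value of 0.6 was set after the correlations were seen.

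Libraries differed in how many members lay above the group mean. Of the 27 members, 22 were above their group mean in CPB/DHCA 1 and 2 in CPB/DHCA 4, with median deviations of 0.22 and -0.22 on the log2 scale. In the control group 18 were above it in control 2 and 6 in control 4. The median 3p member deviated by 0.28 in control 2, whereas the median 5p member deviated by -0.07. Other abundant miRNAs had median deviations of -0.05 to 0.06 in every library. The TMM scaling over all the tested miRNAs holds that median near 0, so it serves as a reference level only. Control 2 was the highest of all 8 libraries for 11 of the 27 members, and CPB/DHCA 4 the lowest for 12. With 1 library left out, the median correlation of members ran from 0.16, without CPB/DHCA 4, to 0.33, without control 4, and stayed between -0.01 and 0.00 for the other abundant miRNAs. Among 3p members it ran from 0.31, without control 2, to 0.55, without control 1. Leaving out libraries here was chosen after the values were seen.

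**Figure D5:**
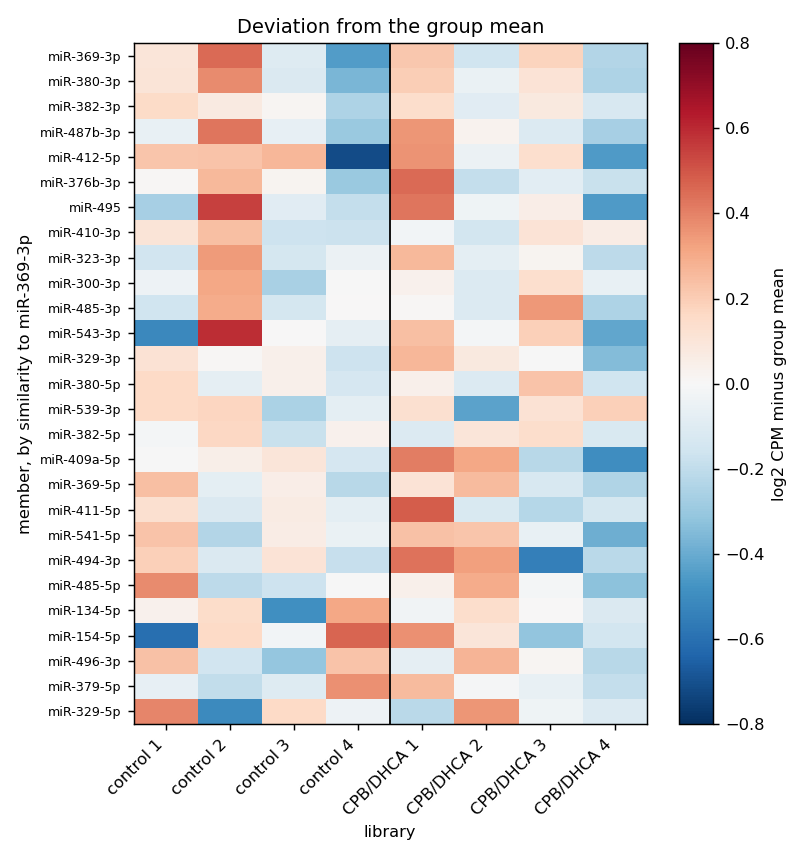
Deviation of log2 CPM from the group mean (colour) for the 27 tested members of at least 100 CPM (rows, by their correlation with miR-369-3p) in each library (columns). Most members are above their group mean in CPB/DHCA 1 (22 of 27), and few are in CPB/DHCA 4 (2 of 27).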

How the data were processed

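The authors removed adapters with cutadapt 1.9.3, kept reads of 15 nt or more, aligned them with Novoalign 3.02.12 (1 mismatch permitted) to precursors of miRBase and precursors predicted with miRDeep2 2.0.0.5, and deposited raw tag counts per mature miRNA. The deposited normalized score, which the authors call TPM, is in whole numbers and was used in alternatives only. Its columns sum to 252767 to 268334 over the listed miRNAs, so a pseudocount on it weighs more than the same on CPM. The submitters' notes name rn6, and the release of miRBase is not given in the sources used here. No count of 1 is listed, and 1175 of 4920 cells were empty.

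Counts of 467 miRNAs were fitted with edgeR 4.0.16 (R 4.3.3), with TMM factors of 0.891 to 1.129 and p adjusted by Benjamini and Hochberg over all of them. Standard errors are the log2 fold change over the root of F, and 95% intervals use the same fit. Arm balance was log2 of 3p over 5p tags with 0.5 added to each, fitted with limma 3.58.1. Permutation tests enumerated 70 assignments on CPM or on log2 ratios. The scripts were tested on simulated data. Other steps ran in Python 3.11.15 (scipy 1.17.1, numpy 2.4.6, pandas 2.3.3).

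Members and lists were chosen with earlier results of these data known. Named were the 10 most abundant members, those past both thresholds with the other arm of their hairpin, those with at least 5 tags in 1 group and none listed in the other, the most abundant of members that share a seed, and the 3 hairpins of smallest p in the arm balance; others are named as added. Pairs of libraries of a group differed by more than counting error (chi-square over its degrees of freedom, 12.0 to 203.7), so none was counted as a repeat. Nothing beyond the library of each rat was repeated, and p-values measure the spread between these libraries. Labels give 1 batch date for all libraries. Alternatives were DESeq2 1.42.0, other scaling, other filters, empty cells at 1 tag, the replicate block, limma on the log2 of the score, miRBase miRNAs only and each library left out.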

Additional observations from a re-analysis of the deposited data

Results flagged for a closer look

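miR-539-3p, the more abundant of the members that share a seed, was far lower in CPB/DHCA 2, at 158.2 CPM, than in the other CPB/DHCA libraries, which lay between 231.4 and 243.6 CPM. The gap to the nearest of these was 0.857 of the range of the group. The control libraries had 202.5 to 272.8 CPM, and the log2 fold change was -0.17 (standard error 0.20). In all, 28 groups of 4 libraries were looked at in this way, of which chance would mark about 1 in 20, and this was the only one past the limit. The cause was not tested.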

How the results depend on the processing

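The count of members lower at both thresholds was 2 and became 1 under DESeq2, with at least 10 counts in at least 4 libraries and with the replicate block, and 0 with limma on log2(score + 10). It ranged from 0 to 2 with 1 library left out, and the 1 left without CPB/DHCA 2 was miR-300-5p. Members higher numbered 0 and became 1, miR-376a-5p, without a filter. All miRNAs past both thresholds numbered 34, but 12 with limma on log2(score + 10), 19 with miRBase miRNAs only and 18 to 44 with 1 library left out (18 without control 3, 21 without control 1). miR-369-3p turned to 0.005 under DESeq2 and with RLE factors, 0.019 with the stricter filter, 0.008 with limma at either pseudocount and 0.006 with miRBase miRNAs only. miR-382-5p turned to 0.011, 0.012, 0.024 and 0.004 under DESeq2, RLE, the stricter filter and miRBase miRNAs only. With 1 library left out, log2 fold changes ranged from -0.172 to 0.154 for miR-369-3p, -0.173 to 0.041 for miR-323-3p, -0.162 to 0.049 for miR-300-3p, -0.093 to 0.039 for miR-382-5p, -0.172 to 0.036 for miR-379-5p, -0.325 to 0.049 for miR-495, -0.266 to 0.006 for miR-380-3p and -0.055 to 0.209 for miR-409a-5p. The log2 ratio of the summed levels was -0.09, and -0.15 to -0.02 with 1 library left out. Hairpins past an adjusted p under 0.05 in the arm balance numbered 0, and 0 to 1 with 1 library left out (1 without CPB/DHCA 4). Scaling on miRNAs outside the cluster, chosen after seeing the data, left the members' calls at 2 lower and 0 higher. The causes were not tested.

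Same-numbered libraries of the groups had correlations of deviations of 0.195, -0.077, -0.061 and 0.501, and 4 of 8 libraries were closest to their own number. Whether the numbers pair the samples cannot be told from these values, and the main fit did not pair them. With the replicate block, 31 miRNAs passed both thresholds, and miR-376a-3p passed (-0.81) but miR-668 did not (-0.64). Members under 10 CPM rest on few tags per library, which limits what can be detected in them.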
